A study of Mus musculus with 24 samples.

Results

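Transcripts of 41 genes that build, cross-link or organise the collagen matrix were followed in 12 mice, each sampled in epididymal adipose tissue and in liver, which either lacked the fatty acid receptor GPR120 or carried it. The list was set by gene function, with earlier results of these data known. It held 6 fibrillar collagens, 10 basement membrane genes, 3 type VI collagen chains, 3 other collagens and 4 small proteoglycans. The rest were 8 fibre and matricellular glycoproteins, 3 crosslinking enzymes, 2 collagen folding genes and 2 growth factors. A probe set naming a single gene was available for 39 of the 41, out of 18193 genes that had one. Fbn1 (fibrillin 1) is not named by any probe set of the annotation used here and was not analysed, and both probe sets of Loxl2, a lysyl oxidase relative, also map to another gene and were not used. The brightest probe set stood for each gene in each tissue. The groups were GPR120 KO and wild-type (WT) mice on a normal diet (ND) or a high-fat diet (HFD), with 3 mice in each and 8 groups over both tissues. Each mouse gave an adipose and a liver array, and every mouse, WT included, had a mixed 129/Sv and C57BL/6 background. Age, time on diet, the deleted part of the gene and the number of founder lines were not given in the sources used here. Levels are MAS5 signals in intensity units and are listed per mouse in the order 427, 428 and 429 (KO on HFD), 546, 547 and 560 (WT on HFD), 718, 719 and 720 (KO on ND) and 686, 687 and 690 (WT on ND). Differences are on the log2 scale with their standard error, and a gene was called when its adjusted p (limma, Benjamini-Hochberg over all genes tested) was under 0.05.

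The interstitial matrix of adipose tissue and liver is built from fibrils of type I, III and V collagen, which are secreted mostly by fibroblast-like cells, and in liver by stellate cells and portal fibroblasts. Type VI collagen forms beaded filaments between the fibrils and the cells and is abundant around adipocytes, whereas type IV collagen, laminins and nidogen form the basement membrane sheets around adipocytes and vessels. Newly made collagen chains are hydroxylated and chaperoned in the endoplasmic reticulum, trimmed outside the cell, spaced by small leucine-rich proteoglycans and cross-linked by lysyl oxidases, and TGF-beta is a known inducer of many of these genes.

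Col1a2, Col3a1 and Col6a3 were the members called higher in KO mice on HFD in both tissues, and the bases before their annotated starts are shown so that the elements in each can be compared. Each line gives the 250 bases before the start in RefSeq (build GRCm38.p6), 5′ to 3′ on the gene's strand. Capitals mark matches to the CCAAT box, the TATA box, the GC box or the SMAD box on either strand. The CCAAT box was searched as CCAAT and, for the other strand, as ATTGG. The TATA box was searched as TATAAA and its reverse complement, the GC box as GGGCGG and its reverse complement, and the SMAD box as CAGAC and its reverse complement.
Col1a2: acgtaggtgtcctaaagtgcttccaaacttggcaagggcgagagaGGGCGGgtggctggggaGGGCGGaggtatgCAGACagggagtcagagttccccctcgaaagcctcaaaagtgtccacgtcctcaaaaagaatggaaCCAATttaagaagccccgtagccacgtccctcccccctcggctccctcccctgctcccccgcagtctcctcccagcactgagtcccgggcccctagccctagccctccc
Col3a1: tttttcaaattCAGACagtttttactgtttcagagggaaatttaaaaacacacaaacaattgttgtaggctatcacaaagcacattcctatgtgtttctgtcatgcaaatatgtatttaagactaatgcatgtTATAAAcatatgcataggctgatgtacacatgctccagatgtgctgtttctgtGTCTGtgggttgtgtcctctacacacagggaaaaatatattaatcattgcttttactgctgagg
Col6a3: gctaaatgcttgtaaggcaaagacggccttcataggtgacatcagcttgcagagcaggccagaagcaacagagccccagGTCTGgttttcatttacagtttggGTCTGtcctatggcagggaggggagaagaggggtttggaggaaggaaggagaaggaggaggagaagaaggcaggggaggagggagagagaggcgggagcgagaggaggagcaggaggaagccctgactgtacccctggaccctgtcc
The Col1a2 window (chr6:4505368-4505617, plus strand) held 1 CCAAT box, 2 GC boxes and 1 SMAD box. The Col3a1 window (chr1:45311288-45311537, plus strand) held 1 TATA box and 2 SMAD boxes, and the Col6a3 window (chr1:90843972-90844221, minus strand) held 2 SMAD boxes alone. The shared element was thus the SMAD box, a short sequence found in 42.2% of 32851 windows of the same length. A window was given for 26 of the 41 members. Among these 26, 14 (53.8%) held a SMAD box. The GC box, whose matches can overlap one another, was in 16 (61.5%, against 32.7% of all windows), the CCAAT box in 9 (34.6% against 33.8%) and the TATA box in 2 (7.69% against 12.4%). These are matches of letters and not measured binding sites.

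The gene that encodes GPR120, Ffar4, was checked first with its single probe set. In adipose tissue on HFD its signal was 23.1 to 30.5 in KO and 97.3 to 171 in WT mice, and on ND 33.7 to 35.7 in KO and 58.3 to 73.7 in WT. In liver it ran the other way, at 13.5 to 18.3 in KO and 0.55 to 1.63 in WT mice on HFD and at 21.5 to 36.8 and 1.07 to 17.3 on ND, so liver groups are named below as the arrays are labelled. Whether this probe set falls inside the deletion was not known here. Adipoq, the adipocyte hormone adiponectin, was at 3799.9 to 7424 on adipose arrays and 1.29 to 27.4 on liver arrays. Alb, encoding albumin, was at 9314 to 14141 in liver. Some adipose arrays carried signal of neighbouring tissue. Summed epididymis epithelium markers were at 34980 to 56280 on all ND arrays and 23.9 to 2737 on HFD arrays, the highest of the latter from KO mouse 427, and skeletal muscle markers reached 5825 in WT mouse 547 on HFD. Sperm markers were at 13290 and 18060 in WT mice 686 and 690 on ND. Arrays are of whole tissue, so fewer cells of a type and less RNA per cell cannot be told apart.

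On HFD, adipose tissue of KO mice carried more fibrillar collagen, type VI collagen and lumican transcript than that of WT mice, while most type IV collagen and laminin transcripts did not pass the test. Of 39 members tested, 14 rose and 2 fell in KO mice, and 23 were not called. Over all 11613 genes tested 11.1% were higher and 11.4% lower. The members' median log2 difference was 0.49, beside -0.03 over all genes, and 30 of 39 were higher in KO mice. All 3 type VI chains and 4 of 6 fibrillar collagens rose. In the basement membrane group 2 of 10 rose and 1 fell. Among small proteoglycans 2 of 4 rose, and among the 7 measured glycoproteins 1 rose and 1 fell. One folding gene of 2 and 1 growth factor of 2 rose, and neither of the 2 measured crosslinking enzymes nor any of the 3 other collagens was called. The count depended on single mice: it was 9 without WT mouse 560, 10 without KO mouse 429 and 21 without KO mouse 427, and 9 of the 16 calls were kept whichever array was left out.

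**Figure D1:**
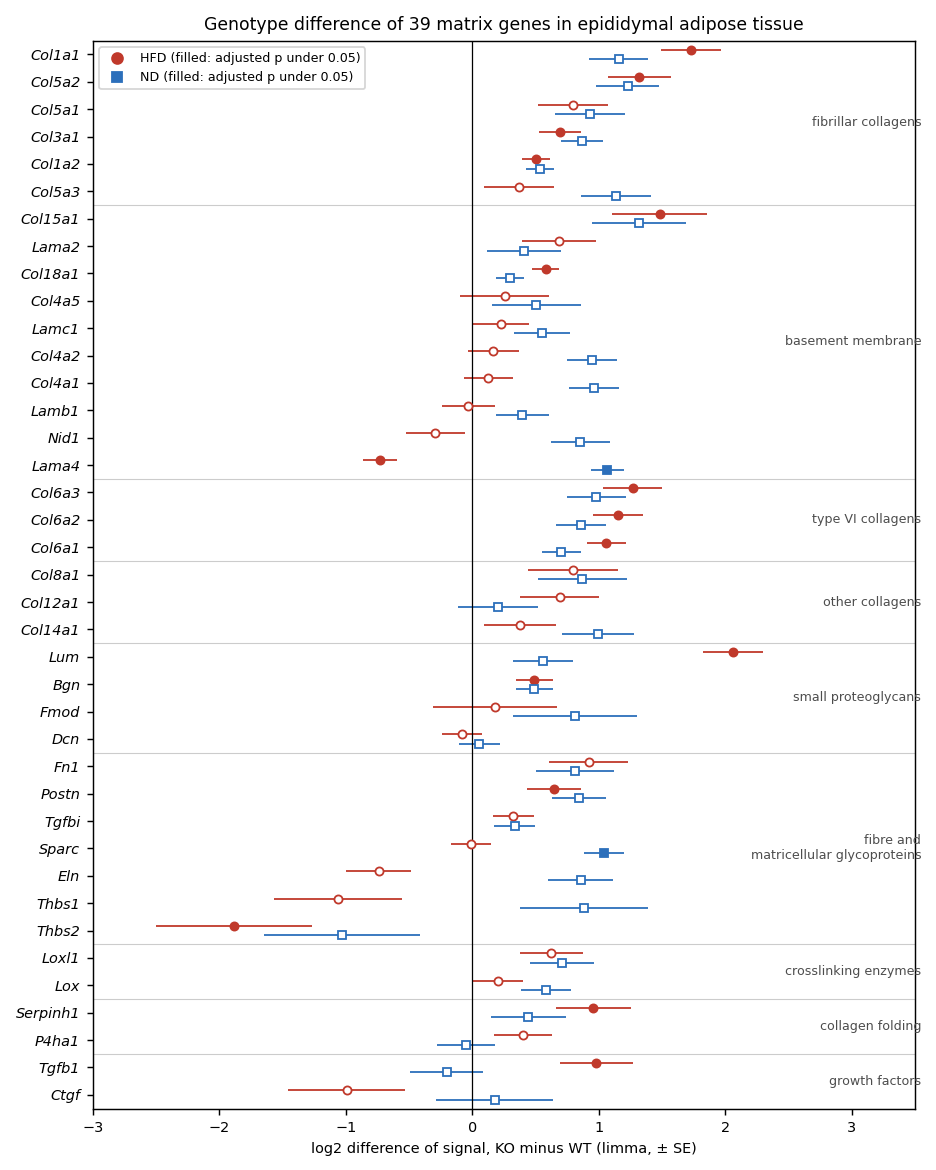
Log2 difference between KO and WT mice in epididymal adipose tissue for the 39 measured members, grouped by role, with the standard error as bars (n = 3 mice in each group). Circles are HFD and squares ND, and filled symbols passed an adjusted p of 0.05. On HFD 16 members are filled and on ND 2, and Lama4 lies on opposite sides of 0 on the 2 diets.

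Col1a1, the chain present in 2 copies in each type I collagen molecule, showed the largest difference among the fibrillar collagens by the probe sets used. Its adipose signals on HFD were 682, 521 and 736 in KO and 178, 216 and 187 in WT mice. Every KO array lay above every WT array, and the log2 difference was 1.73 ± 0.24 (3.31-fold, adjusted p = 0.00096). Col5a2, a chain of the type V collagen that nucleates fibrils, read 1978, 2853 and 3282 in KO and 908, 1506 and 869 in WT mice. The groups again did not overlap, although WT mouse 547 was well above its group, and the difference was 1.32 ± 0.25 (adjusted p = 0.00399). Col1a2, the second chain of type I collagen, was at 3979.7, 4611 and 5124 in KO and 3049, 3337 and 3246 in WT mice, a smaller difference of 0.50 ± 0.11 (adjusted p = 0.00975). A dimmer probe set of Col1a2 gave 1.66. Col3a1, the sole chain of type III collagen, was at 4988, 6179.6 and 7054 in KO and 3440.0, 4298 and 3471 in WT mice, without overlap. Its difference was 0.69 ± 0.17 (adjusted p = 0.0127), and the call was lost without mouse 429 (adjusted p = 0.0553) or mouse 560 (0.0508). The dimmer Col3a1 probe set differed by more, by 2.25, as did that of Col5a2, by 2.18. Col5a1 and Col5a3, the partner chains of type V collagen, were not called. Col5a1 differed by 0.80 ± 0.28 (adjusted p = 0.0603), with WT mouse 547 at 792 above KO mouse 427 at 665. Col5a3 was at 468, 729 and 684 in KO and 514, 495 and 427 in WT mice, which overlapped, and differed by 0.37 ± 0.28.

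The 3 chains that assemble into type VI collagen all rose. Col6a1 read 1422, 1855 and 1716 in KO and 798, 937 and 666 in WT mice on HFD, a difference of 1.06 ± 0.16 (adjusted p = 0.00131). Col6a2 was at 2208, 3042 and 2863 in KO and 1204, 1454 and 1002 in WT mice, 1.15 ± 0.20 apart (adjusted p = 0.00272). Col6a3, whose cleaved end is the adipose signalling peptide endotrophin, was at 1730.3, 1964 and 2753 and 730.5, 1211 and 758, 1.27 ± 0.23 apart (adjusted p = 0.00358). No KO array overlapped a WT array for any of the 3, and the share of all genes without such overlap was not counted. All 3 calls held in every refit that left out an array. The genes Col6a1 and Col6a2 lie next to each other on chromosome 10, whereas Col6a3 is on chromosome 1.

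Basement membrane genes did not move as a block. Lama4, a laminin chain of adipocyte and vessel basement membranes, was the 1 member of the group that fell: its signal was 354, 437 and 479.7 in KO and 706, 716 and 669 in WT mice, with no overlap. It fell by 0.73 ± 0.13 (adjusted p = 0.00331). Averaging the probe sets of each gene ended this call (adjusted p = 0.0952), the second Lama4 probe set being dim. Col18a1, the precursor of endostatin, was at 281, 322 and 297 in KO and 202, 221 and 179.6 in WT mice, a difference of 0.58 ± 0.11 (adjusted p = 0.00371). Its other probe set differed by 0.08, and the mean of the pair was not called (adjusted p = 0.05). Col15a1, a collagen that links basement membranes to fibrils, read 112, 139 and 177 in KO and 58.4, 64.0 and 33.9 in WT mice. It rose by 1.48 ± 0.37 (adjusted p = 0.0163), a call lost without mouse 429 (0.0667) or 560 (0.0688). Nid1, the nidogen that bridges laminin and type IV collagen, was at 2122, 3376 and 2307 in KO and 3392, 3007 and 2965 in WT mice, overlapping, and differed by -0.29 ± 0.23 (adjusted p = 0.408). For Col4a1, a main chain of type IV collagen, the difference was 0.13 with a 95% interval of -0.30 to 0.56. Col4a2, Col4a5, Lamb1 and Lamc1 were within -0.03 and 0.26, and Lama2 was at 0.69 ± 0.29 (adjusted p = 0.117).

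**Figure D2:**
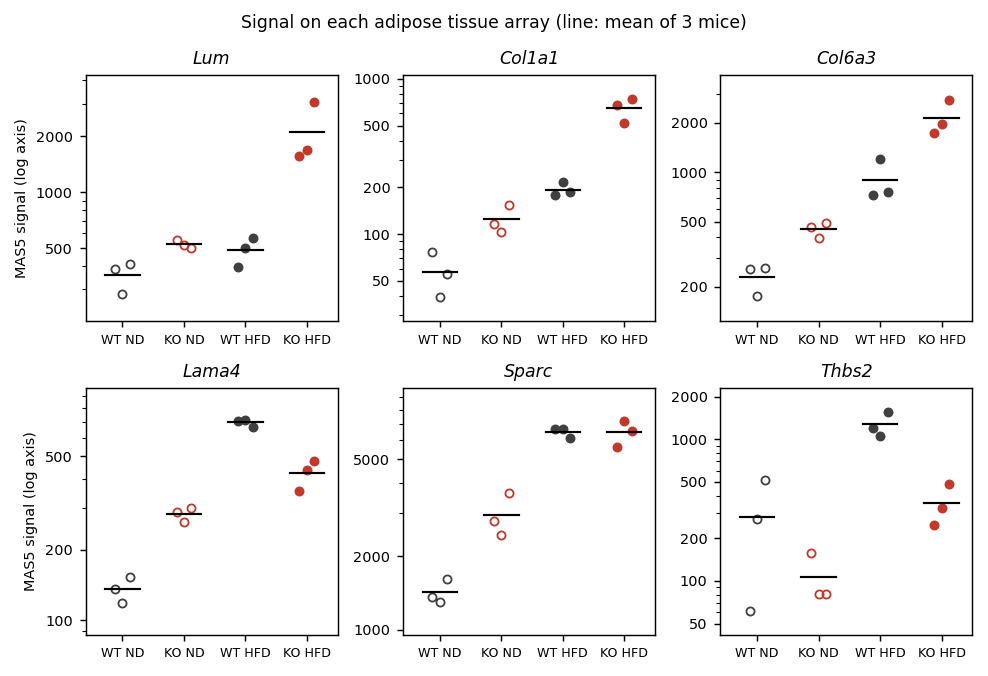
Signal on every adipose array, on a log axis in intensity units, for Lum, Col1a1, Col6a3, Lama4, Sparc and Thbs2 in the 4 groups of 3 mice. On HFD Lum, Col1a1 and Col6a3 lie higher in all KO mice than in all WT mice, Lama4 and Thbs2 lie lower, and the Sparc arrays of the genotypes overlap.

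Lum, which encodes the small proteoglycan lumican that spaces collagen fibrils, showed the largest rise of all members by the probe sets used. Its signals on HFD were 1577, 1689.5 and 3057 in KO and 396, 502 and 565 in WT mice. The lowest KO array was far above the highest WT array, and the difference was 2.06 ± 0.24 (4.17-fold, adjusted p = 0.000513). Bgn, encoding biglycan, was at 2317, 2514 and 3548 in KO and 2063, 1874 and 1923 in WT mice, 0.49 ± 0.15 apart (adjusted p = 0.0328). The Bgn call was lost without any 1 of mice 429, 546, 547 and 560 (adjusted p = 0.0598 to 0.0915). Dcn, encoding decorin and the chromosomal neighbour of Lum on chromosome 10, was at 4571, 4818 and 5609 in KO and 5336, 4412 and 6216 in WT mice. Those groups overlapped and Dcn differed by -0.08 ± 0.16 (95% interval -0.43 to 0.27). Fmod, encoding fibromodulin, was at 799, 174 and 178 in KO and 398, 228 and 187 in WT mice, with KO mouse 427 far above the rest. Among the other collagens, Col8a1, a network-forming vessel collagen, read 243, 337 and 844 in KO and 254, 224 and 233 in WT mice, the high value being mouse 429, and it was not called (0.80 ± 0.35, adjusted p = 0.131). Col12a1 and Col14a1 coat the surface of collagen fibrils. Col12a1 was at 171, 170.2 and 84.0 in KO and 104, 105 and 53.3 in WT mice, and Col14a1 at 356, 376 and 734 and 255, 481 and 364. Both overlapped between genotypes, and neither was called.

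Of the 7 measured fibre and matricellular glycoproteins 1 was called higher and 1 lower, shares near the 11.1% and 11.4% of all genes. Thbs2, encoding the angiogenesis inhibitor thrombospondin 2, was at 250.0, 327 and 483 in KO and 1204, 1051 and 1572 in WT mice, with every KO array lower. It fell by 1.89 ± 0.61 (adjusted p = 0.0478), but leaving out any 1 of the 6 arrays ended the call (adjusted p = 0.0699 to 0.143). Postn, encoding periostin, a protein of remodelled matrix, was at 1883, 2037 and 3417 in KO and 1419.9, 1852 and 1302 in WT mice, 0.65 ± 0.21 apart (adjusted p = 0.0496). Periostin's call also ended without mouse 429, 546 or 560 (adjusted p = 0.129 to 0.167). Fn1, the fibronectin gene, was just outside the threshold at 0.92 ± 0.31 (adjusted p = 0.0539). Its KO arrays were 1860.1, 3079 and 3776 and its WT arrays 1198, 2507 and 1064, so that WT mouse 547 lay above KO mouse 427. Sparc, encoding a collagen-binding protein of secreting fibroblasts, was at 5611, 7212 and 6547 in KO and 6633, 6664 and 6129.8 in WT mice, a difference of -0.01 with a 95% interval of -0.35 to 0.33. Eln, the elastin gene, was at 140.4, 157 and 87.7 in KO and 275, 151 and 216 in WT mice, -0.74 ± 0.26 (adjusted p = 0.0595). Thbs1 (-1.06 ± 0.51) and Tgfbi (0.32 ± 0.16) were not called either.

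Of the 6 measured enzymes, chaperones and growth factors 2 were called. Loxl1, a lysyl oxidase relative needed for elastic fibres, was at 491, 721 and 1107 in KO and 466, 590.0 and 389.8 in WT mice and was not called (0.62 ± 0.25, adjusted p = 0.0972). Lox, the main collagen crosslinking enzyme, was at 685, 604 and 705 and 714, 490.1 and 548, overlapping, and differed by 0.20 ± 0.20. Serpinh1, encoding the collagen chaperone HSP47, read 1032, 1768 and 1532 in KO and 775, 1048 and 471 in WT mice. It rose by 0.96 ± 0.30 (adjusted p = 0.0395) although WT mouse 547 overlapped KO mouse 427, and the call ended without mouse 428, 429, 546 or 560 (adjusted p = 0.0783 to 0.149). P4ha1, a subunit of the enzyme that hydroxylates collagen prolines, was at 103, 117 and 179 and 90.6, 122 and 84.5 and was not called (0.40 ± 0.23). Tgfb1, the profibrotic growth factor, was dim, at 45.5, 57.5 and 59.1 in KO and 28.7, 25.1 and 27.9 in WT mice without overlap. It rose by 0.98 ± 0.29 (adjusted p = 0.0316), and leaving out mouse 428, 429, 546, 547 or 560 ended the call (adjusted p = 0.0657 to 0.0976). Its other probe set, under the filter level, differed by 0.22, and averaging the pair ended the call (adjusted p = 0.119). Ctgf, a TGF-beta target listed as Ccn2 in the annotation, was at 725, 225 and 219 in KO and 1119, 365 and 689.6 in WT mice. Those arrays overlapped widely and Ctgf was not called (-0.99 ± 0.46).

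Genes that process matrix were read from lists that do not overlap the members, and their counts stand beside 11.1% of all genes higher and 11.4% lower. Of 17 further collagen modification and folding genes 4 rose and none fell, led by Pcolce, the enhancer of procollagen trimming (1.03 ± 0.19, adjusted p = 0.00379), Colgalt1, a collagen galactosyltransferase (1.07 ± 0.24, 0.00973), and Plod1, a lysyl hydroxylase (0.86 ± 0.20, 0.011). In the list of matrix proteases and their inhibitors 10 of 18 rose and 2 fell. Timp1, a metalloprotease inhibitor, rose by 3.60 ± 0.50 (adjusted p = 0.00103), the collagen-degrading cathepsin K gene Ctsk by 2.83 ± 0.34 (0.000597) and the urokinase gene Plau by 2.0 ± 0.20 (0.000243). Of 15 matrix receptors 2 were higher, a share near that of all genes, the hyaluronan receptor Cd44 (2.10 ± 0.30, 0.00106) and the syndecan Sdc1 (1.58 ± 0.22, 0.00104), and 2 lower, among them the collagen-binding integrin Itga1 (-0.96 ± 0.25, 0.018). In the TGF-beta pathway 2 of 18 rose and 3 fell: Tgfbr1, the type I receptor, differed by 0.77 ± 0.13 (0.0026), the latent binding protein gene Ltbp1 by -0.84 ± 0.17 (0.00625) and the co-receptor Tgfbr3 by -0.69 ± 0.15 (0.00722). Among 31 other structural genes 4 rose and 2 fell. The fibulin genes Fbln2 (0.93 ± 0.20, 0.00735) and Fbln5 (-1.23 ± 0.18, 0.0013) went opposite ways, and the laminin gene Lamb2 was at -0.72 ± 0.14 (0.00427).

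Markers of several cell types moved with these differences. Of 15 macrophage markers 12 rose and 1 fell in KO adipose tissue on HFD, with signals summed over all markers that had a probe set of 19940 to 32710 in KO and 7987 to 13030 in WT mice. All 11 endothelial markers tested fell, at 1656 to 2458 in KO against 4879 to 5408 in WT mice, and 4 of 10 adipocyte markers fell. Fibroblast and stromal markers had overlapping sums, 15160 to 22990 in KO and 15780 to 17660 in WT mice, with 3 of 11 called higher and none lower. None of these lists had a marker at the lowest level used on all arrays. The ratio of the Actb probe sets near the 3′ and 5′ ends of the transcript, a reading of RNA integrity, was 0.73 ± 0.10 in KO and 1.44 ± 0.28 in WT mice on the log2 scale (SD, n = 3). Their part in the collagen and laminin differences was not tested.

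On ND most members read higher in KO than in WT adipose tissue, but 2 passed the test. Lama4 and Sparc rose in KO mice and none fell, against 0.215% of all genes called higher and 0.0344% lower. Lama4 was at 289, 263 and 301 in KO and 136, 119 and 154 in WT mice, 1.07 ± 0.13 apart (adjusted p = 0.0079). Sparc was at 2791, 2449.8 and 3651 and 1359.8, 1297 and 1619, 1.04 ± 0.16 apart (adjusted p = 0.0238). For both genes every KO array was above every WT array. Leaving out single mice ended both calls: Lama4 was lost without KO mouse 718 (0.0706) or 720 (0.0541), and Sparc without mouse 718 (0.0989), 720 (0.0848) or 686 (0.0774). Averaging probe sets also ended both (adjusted p = 0.801 for Lama4 and 0.229 for Sparc). The other Lama4 probe set, under the filter level, differed by -0.54. Those of Sparc differed by 0.84 and, under the filter level, by -0.12. Leaving out WT mice 686 and 690 leaves the WT group with mouse 687 alone, whose spread is then assumed from the other groups. With that single array the adjusted p was 0.0714 for Lama4 and 0.122 for Sparc, and any part of the sperm signal in this was not tested. Of the 39 members 36 were higher in KO mice, with a median of 0.81 beside 0.07 over all genes, of which 7059 of 11613 were higher. At an unadjusted p under 0.05, 26 members were higher and none lower, beside 1034 higher and 583 lower of all 11613 genes. Col3a1 (0.87 ± 0.17, adjusted p = 0.0641), Col1a1 (1.16 ± 0.24, 0.081) and Col5a2 (1.23 ± 0.25, 0.081) were near the threshold. Summed endothelial markers were 1547 to 1659 in KO and 1005 to 1386 in WT mice on ND, macrophage markers 4402 to 5604 and 3664 to 3991, and fibroblast markers 11010.0 to 11260.0 and 7312 to 10760.0, and their part in these values was not tested. Outside the list, the fibulin genes Fbln2 (1.77 ± 0.20, adjusted p = 0.00569) and Fbln5 (1.06 ± 0.18, 0.0434) rose.

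Most members rose with the high-fat diet in adipose tissue of either genotype. In WT mice 31 of 39 members rose on HFD and none fell, against 27.9% of all genes higher and 27.4% lower, and their median difference was 1.73 beside -0.03. In KO mice 32 rose and 1 fell, against 22.1% and 26.6% of all genes, with a median of 1.36 beside -0.08. A set of 29 members rose in both genotypes (93.5% of those in WT and 90.6% of those in KO). The same overlap was not counted over all genes, so whether it is particular to these members is not known. In WT mice Col5a2 went from 147, 164 and 173 on ND to 908, 1506 and 869 on HFD (2.72 ± 0.25, adjusted p = 9.35e-06), and in KO mice from 364, 301 and 489.6 to 1978, 2853 and 3282 (2.81 ± 0.25, 1.03e-05). Among WT mice Sparc rose by 2.19 ± 0.16 (adjusted p = 1.87e-06), Lama4 by 2.36 ± 0.13 (4.45e-07), Col4a2 by 2.32 ± 0.20 (6.61e-06) and Thbs1 by 2.95 ± 0.51 (0.000551). Col6a1 had the smallest p in KO mice (1.82 ± 0.16, adjusted p = 8.66e-06). Because Col15a1 was below the filter on ND in WT mice, its rise there is given as at least 2.70-fold. For the same reason that of Tgfb1 in KO mice, from 14.5, 12.7 and 19.0 to 45.5, 57.5 and 59.1, is given as at least 2.80-fold. The other Tgfb1 probe set, under the filter level, differed by 0.46 on the log2 scale in KO mice. The single fall was Ctgf in KO mice, from 861, 1011 and 799 on ND to 725, 225 and 219 on HFD (-1.43 ± 0.46, adjusted p = 0.0244), a call lost without mouse 428, 429, 718 or 719 (adjusted p = 0.0556 to 0.0935). The WT call of Lama2 was lost without mouse 547 (adjusted p = 0.0503), and the KO call of Thbs2 without mouse 428, 429, 719 or 720 (0.071 to 0.108). Epididymis markers separated the diets in both genotypes, with sums of 34980 or more on every ND array and at most 2737 on HFD. In WT mice 11 of 11 endothelial, 10 of 15 macrophage, 8 of 11 fibroblast and 7 of 10 adipocyte markers also rose on HFD, while 2 fibroblast markers and 3 of 8 mesothelial markers fell. In KO mice 13 of 15 macrophage, 7 of 11 fibroblast, 5 of 11 endothelial and 3 of 10 adipocyte markers rose. Among the same lists 2 fibroblast, 1 adipocyte and 3 of 8 mesothelial markers fell in KO mice. Of 10 myofibroblast and smooth muscle markers 1 rose and 4 fell in WT mice, and none rose and 4 fell in KO mice. The Actb ratio was 0.90 ± 0.02 on ND and 1.44 ± 0.28 on HFD in WT mice, and 0.80 ± 0.07 and 0.73 ± 0.10 in KO mice (log2, SD, n = 3). The part of these markers and of the ratio in the diet difference was not tested.

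**Figure D3:**
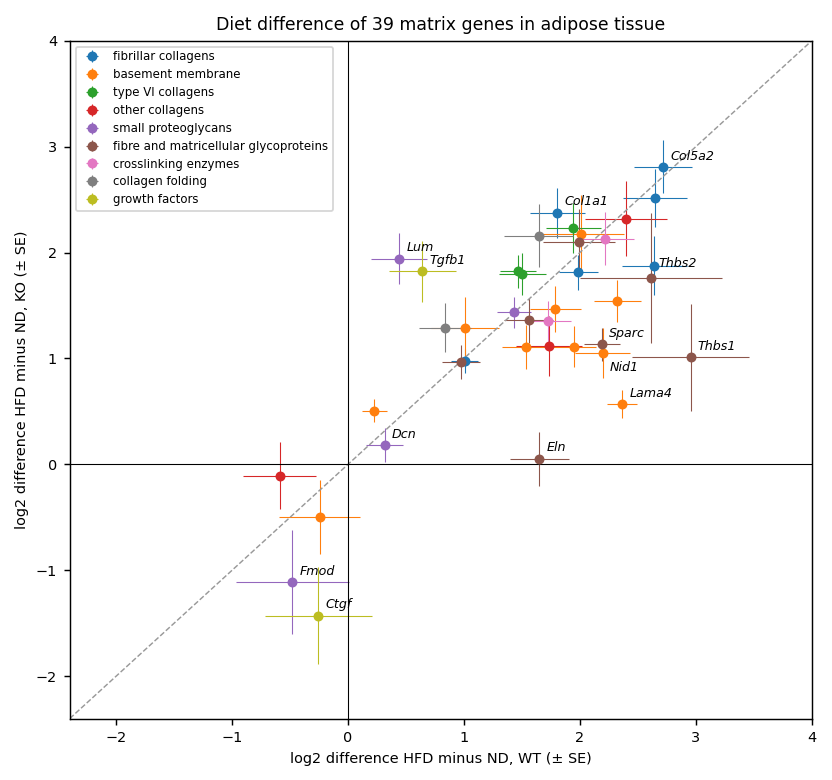
Log2 difference between HFD and ND in adipose tissue for the 39 measured members, WT mice on the horizontal and KO mice on the vertical axis, with a dashed line of equal difference. Lum lies above the line, with 0.44 in WT and 1.94 in KO mice, and Lama4, Sparc, Eln and Nid1 lie below it.

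The dependence of the genotype difference on diet was tested as an interaction, the KO minus WT difference on HFD less that on ND. In adipose tissue 1 of 39 members was called positive and 4 negative, shares near the 3.76% and 7.2% of all genes. Lama4 had the smallest p, at -1.80 ± 0.19 (adjusted p = 0.00245): it was higher in KO than in WT mice on ND and lower on HFD. Sparc (-1.05 ± 0.22, 0.0154) was higher in KO mice on ND, and differed by -0.01 on HFD. Averaging probe sets ended both calls (adjusted p = 0.154 and 0.108). For Eln the interaction was -1.60 ± 0.36 (0.0199), with ND signals of 100.5, 123 and 139 in KO and 61.8, 76.3 and 61.5 in WT mice, and the call was lost without KO mouse 720 (0.0529). Nid1 (-1.14 ± 0.33, 0.0482) read 1168, 1010.2 and 1575 in KO and 551, 608 and 938 in WT mice on ND. The Nid1 call was lost in 10 of the refits that left out an array (adjusted p = 0.0544 to 0.111), those without mouse 427, 429, 546, 547, 560, 686, 687, 718, 719 or 720. Lum was the positive call, at 1.50 ± 0.34 (0.0193), with ND signals of 553, 517 and 502 in KO and 385, 284 and 412 in WT mice. With mouse 687 as the single WT array on ND, its spread assumed from the other groups, the adjusted p was 0.149 for Lum and 0.136 for Eln. None of the type IV chains was called: Col4a1 was at -0.84 ± 0.28 (adjusted p = 0.0754), Col4a2 at -0.78 ± 0.28 (0.102) and Col4a5 at -0.25 ± 0.50 (0.78). No fibrillar or type VI chain was called: Col5a3 had the smallest p of the fibrillar group (-0.77 ± 0.39, 0.231), and Col5a2, at 0.09, had a 95% interval of -0.68 to 0.87. In the same test 10 of 11 endothelial markers were called negative and 8 of 15 macrophage markers positive, and their part in the Lama4 and Nid1 values was not tested.

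In liver on HFD, arrays labelled KO carried more transcript of Col3a1 and Col1a2, chains of type III and type I collagen, than those labelled WT. Of 33 members above the filter 6 rose and 1 fell, against 3.73% of all 11125 genes higher and 2.98% lower. The median was 0.40 beside -0.03, and 26 of 33 were higher. Col3a1 read 977, 434 and 766 on KO and 126, 109.5 and 128 on WT arrays, without overlap and 2.51 ± 0.28 apart (5.70-fold, adjusted p = 0.00026). Col1a2 was at 521, 267 and 553 and 85.3, 101 and 102, 2.15 ± 0.25 apart (adjusted p = 0.000284). For both genes mouse 428 was the lowest KO array and still above every WT array. Col14a1, which in liver is made by stromal cells, was at 523, 357 and 502 on KO and 193, 220.2 and 169 on WT arrays (1.24 ± 0.18, 0.00184), a call that averaging its probe sets ended (adjusted p = 0.302). Col6a3 was at 146, 90.4 and 115 and 49.9, 41.0 and 59.0 (1.22 ± 0.20, 0.004). These 4 calls held whichever array was left out.

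The remaining liver calls were smaller or less stable. Col5a3 was at 97.2, 129.5 and 60.9 on KO and 51.4, 42.5 and 38.5 on WT arrays (1.06 ± 0.28, adjusted p = 0.0386), lost without mouse 427, 428, 546, 547 or 560 (adjusted p = 0.0633 to 0.135). Col4a1 was at 241, 143 and 174 and 113, 108 and 114 (0.70 ± 0.19, 0.0413), lost without mouse 427, 429, 546, 547 or 560 (adjusted p = 0.0706 to 0.177). Col18a1, a collagen that hepatocytes make, was the one that fell, from 2046, 2127 and 2247 on WT to 1548, 1796 and 1651 on KO arrays (-0.36 ± 0.09, 0.0343). Its call was lost without mouse 427, 429, 546, 547 or 560 (adjusted p = 0.067 to 0.146). Col6a2 (0.83 ± 0.24, 0.0562), Fmod (2.67 ± 0.78, 0.0584, a size that depends on the floor since WT arrays averaged below the filter), Sparc (0.58 ± 0.17, 0.0592) and Col5a1 (0.93 ± 0.27, 0.0596) were just outside the threshold. Col1a1, Col15a1, Lama2, Col8a1, Thbs1 and Lox were below the liver filter and were not tested. Col1a1, the partner of Col1a2, was at 40.7, 23.5 and 49.0 on KO and 8.53, 9.52 and 8.18 on WT arrays on HFD, and at 6.17 to 12.4 on all ND arrays. In the lists of further matrix genes, beside the shares of 3.73% higher and 2.98% lower over all genes, the liver calls were as follows: of the collagen modification list 1 of 14 rose (Pcolce, 0.78 ± 0.20, adjusted p = 0.0344) and 1 fell (Mia3, a collagen export factor, -0.59 ± 0.14, 0.025), 1 of 9 proteases and inhibitors rose (Ctsk, 1.88 ± 0.46, 0.0288) and 1 of 20 other structural genes rose (Tnxb, encoding tenascin X, 1.08 ± 0.28, 0.0379). None of 12 TGF-beta pathway genes and none of 14 matrix receptors was called.

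**Figure D4:**
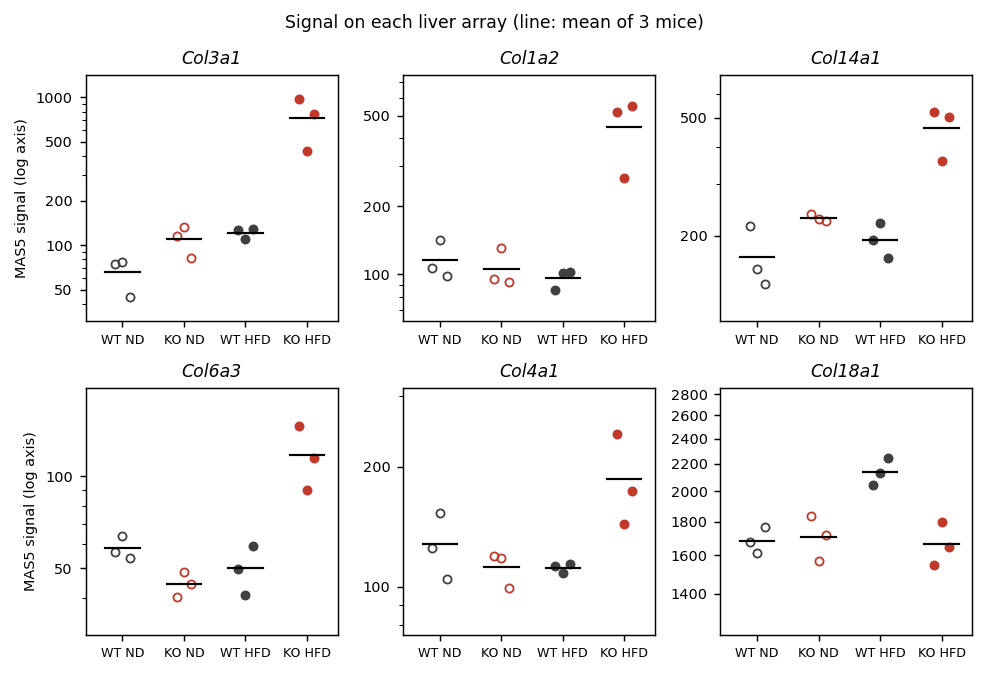
Signal on every liver array, on a log axis in intensity units, for Col3a1, Col1a2, Col14a1, Col6a3, Col4a1 and Col18a1 in the 4 groups of 3 mice. The KO arrays on HFD stand above all the others for Col3a1, Col1a2, Col14a1 and Col6a3, and mouse 428 is the lowest of them.

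In the liver marker lists for the same comparison, none of 8 hepatic stellate cell markers was called, and their sums were 2445 to 2881 on KO and 2287 to 2583 on WT arrays on HFD. Fibroblast and stromal markers summed to 1049 to 1320 on KO and 842 to 981 on WT arrays, with 2 of 6 called higher. Macrophage markers summed to 4653 to 5745 and 3406 to 4343, with 4 of 13 called higher and 1 lower. Hepatocyte markers summed to 63670 to 70670 on KO and 77630 to 87060 on WT arrays, with 4 of 8 called lower and none higher. For 3 of 6 adipocyte markers a rise was called, with overlapping sums of 11420 to 13570 and 9082 to 12550. Mesothelial sums were 4189 to 6316 on KO and 4015 to 4153 on WT arrays (1 of 3 called higher), and myofibroblast and smooth muscle sums 1810.0 to 2015 and 1531 to 1733 (1 of 7 called higher). One of 11 endothelial markers was called higher, with overlapping sums. The Actb ratio was 1.70 ± 0.01 on KO and 2.04 ± 0.05 on WT arrays (log2, SD, n = 3). Their part in the liver collagen values was not tested.

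On ND no member was called between the genotypes in liver by limma after Benjamini-Hochberg adjustment, against 2.22% of all genes higher and 2.49% lower. At an unadjusted p under 0.05, 5 of 33 members were higher and 5 lower, beside 1033 higher and 1306 lower of all 11125 genes. Lum was nearest the adjusted threshold (-0.60 ± 0.16, adjusted p = 0.0532). Col1a2 read 95.5, 130.2 and 92.7 on KO and 106, 142 and 98.9 on WT arrays, and Col6a3 40.4, 48.5 and 44.5 and 56.5, 63.7 and 54.0. The interaction was called for these 2 genes and no other member, against 0.62% of genes positive and 0.369% negative. It was 2.27 ± 0.35 for Col1a2 (adjusted p = 0.012), a call that averaging probe sets ended (0.128), and 1.61 ± 0.28 for Col6a3 (0.0224). Leaving out mouse 427, 429, 547, 687, 718 or 720 ended the Col6a3 call (adjusted p = 0.0522 to 0.0593). Col3a1, at 115, 133 and 81.5 on KO and 74.5, 76.7 and 44.3 on WT arrays on ND, had an interaction of 1.75 ± 0.40 (adjusted p = 0.0622).

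In liver HFD and ND were compared within each labelled genotype. In WT mice 2 of 33 members rose on HFD and 3 fell, against 6.47% and 6.04% of all genes. Ctgf went from 317, 670.3 and 255 on ND to 123, 47.3 and 119 on HFD (-2.10 ± 0.41, adjusted p = 0.00661), the one WT call kept whichever array was left out. Lum fell from 229.9, 191 and 229.5 to 142, 123 and 148 (-0.65 ± 0.16, 0.0218) and Dcn from 2383, 3241 and 2124 to 1762, 1527 and 1982 (-0.54 ± 0.15, 0.0317). Col18a1 (0.35 ± 0.09, 0.0297) and Col3a1 (0.93 ± 0.28, 0.0482) rose. The other Col3a1 probe set, under the filter level, differed by -0.64. Averaging probe sets ended the calls of Col3a1 (adjusted p = 0.874), Col18a1 (0.0732) and Dcn (0.183). The call of Lum was lost without mouse 546, 547, 686 or 690 (adjusted p = 0.0526 to 0.0869) and that of Dcn without mouse 546, 547 or 687 (0.0793 to 0.126). Those of the rising pair were lost for Col18a1 without mouse 546, 547, 560, 686 or 687 (0.0566 to 0.0826) and for Col3a1 without mouse 546, 547, 560, 686, 687 or 690 (0.0559 to 0.159). Col4a2 was just outside (-0.57 ± 0.18, 0.0575), at 115, 123 and 111 on ND and 98.4, 65.8 and 74.0 on HFD. In KO mice 15 rose and 1 fell, against 9.16% and 7.37% of all genes, with a median of 0.55 beside 0.02. Col3a1 (2.68 ± 0.28, 0.000112), Col1a2 (2.02 ± 0.25, 0.000314) and Col6a3 (1.38 ± 0.20, 0.000847) had the smallest p. Tgfbi, an integrin-binding TGF-beta target, went from 294, 333 and 262 to 536, 438 and 493 (0.72 ± 0.12, 0.00158) and Nid1 from 85.4, 111 and 101 to 244, 168 and 186 (1.0 ± 0.19, 0.00405). Col14a1, Col5a1, Serpinh1, Col6a2, Sparc, Col4a1, Lamb1, Col5a2, Col6a1 and Bgn also rose. Apart from Col14a1 these calls ended without some arrays: Col5a1 without mouse 427, 429, 718 or 719 (adjusted p = 0.0569 to 0.0807), Serpinh1 without 429 or 719 (0.0717 to 0.075), Col6a2 without 427, 428, 719 or 720 (0.0549 to 0.0867) and Sparc without 427, 429, 718 or 720 (0.0636 to 0.0963). Likewise Col4a1 was lost without 427, 429 or 720 (0.0525 to 0.0937), Lamb1 without 427, 429, 718 or 720 (0.0572 to 0.0907), Col5a2 without 427, 429, 718 or 719 (0.0871 to 0.115), Col6a1 without 427, 429, 718, 719 or 720 (0.0533 to 0.143) and Bgn without 427, 428, 429, 718, 719 or 720 (0.0599 to 0.143). Averaging probe sets ended the calls of Col14a1 (adjusted p = 0.109), Col5a1 (0.304), Col5a2 (0.096) and Sparc (0.483). The other Sparc probe sets above the filter level differed by 1.09 and -0.93. The fall was P4ha1, from 129.7, 91.6 and 118 to 57.2, 50.5 and 54.4 (-1.05 ± 0.25, 0.0123). It was lost without mouse 718 (adjusted p = 0.0517) and with averaged probe sets (0.293). In KO mice the Col3a1, Col1a2, Col6a3, Tgfbi, Col14a1 and Nid1 calls held whichever array was left out, and the count was 8 to 14 when 1 was left out. In KO liver 7 of 13 macrophage, 4 of 6 fibroblast, 2 of 3 mesothelial and 2 of 8 stellate cell markers also rose on HFD, and 3 of 8 hepatocyte markers and 1 macrophage marker fell. In WT liver no fibroblast or mesothelial marker was called, and 2 macrophage markers rose and 2 fell. The Actb ratio went from 1.29 ± 0.05 on ND to 1.70 ± 0.01 on HFD in KO and from 1.18 ± 0.07 to 2.04 ± 0.05 in WT mice (log2, SD, n = 3). Their part in the liver diet values was not tested. Whether the diet difference itself depended on genotype was called for Col1a2 and Col6a3 alone, as given above.

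Of the members called on HFD, 3 rose in both tissues. Among 33 members tested in both, Col1a2, Col3a1 and Col6a3 rose in KO mice on HFD in adipose tissue and in liver. They are 25% of the 12 adipose rises and 50% of the 6 liver rises among those 33. The same overlap was not counted over all genes, so whether it is particular to these members is not known. A joint fit of both tissues tested the genotype difference on HFD in adipose tissue less that in liver for 31 members, and called 4 higher and 2 lower, against 5.34% and 7.43% of all 10057 genes. Lum was the largest, at 2.32 ± 0.30 (adjusted p = 6.3e-05), its liver signals on HFD being 110.2, 101 and 134 on KO and 142, 123 and 148 on WT arrays. Col1a2 (-1.64 ± 0.29, 0.00113) and Col3a1 (-1.82 ± 0.35, 0.00235) differed more in liver than in adipose tissue. For those 2 genes the dimmer probe sets gave larger adipose differences, and averaging probe sets ended the calls (adjusted p = 0.273 and 0.0726). Without mice 427 and 547 the adjusted p of Col3a1 was 0.052. Fn1 (1.15 ± 0.34, 0.0282), which hepatocytes secrete in bulk, was at 4493, 5132 and 5124 on KO and 5677, 5507 and 6141 on WT liver arrays. Col18a1 (0.44 ± 0.14, 0.0392) and Tgfbi (0.45 ± 0.14, 0.0399) were the other calls, the Col18a1 probe set of the joint fit being the one that differed by 0.08 in adipose tissue. The call ended without 1 array in 6 of 12 refits for Fn1 (adjusted p = 0.0513 to 0.0949), 8 for Col18a1 (0.0581 to 0.115) and 8 for Tgfbi (0.0597 to 0.105). These were the arrays fat 428, fat 429, fat 546, fat 560, liver 427 or liver 560 for Fn1, fat 427, fat 428, fat 546, fat 560, liver 427, liver 429, liver 547 or liver 560 for Col18a1 and fat 428, fat 429, fat 546, fat 560, liver 428, liver 429, liver 546 or liver 547 for Tgfbi. For Col6a3 the tissues differed by 0.05, with a 95% interval of -0.59 to 0.69.

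**Figure D5:**
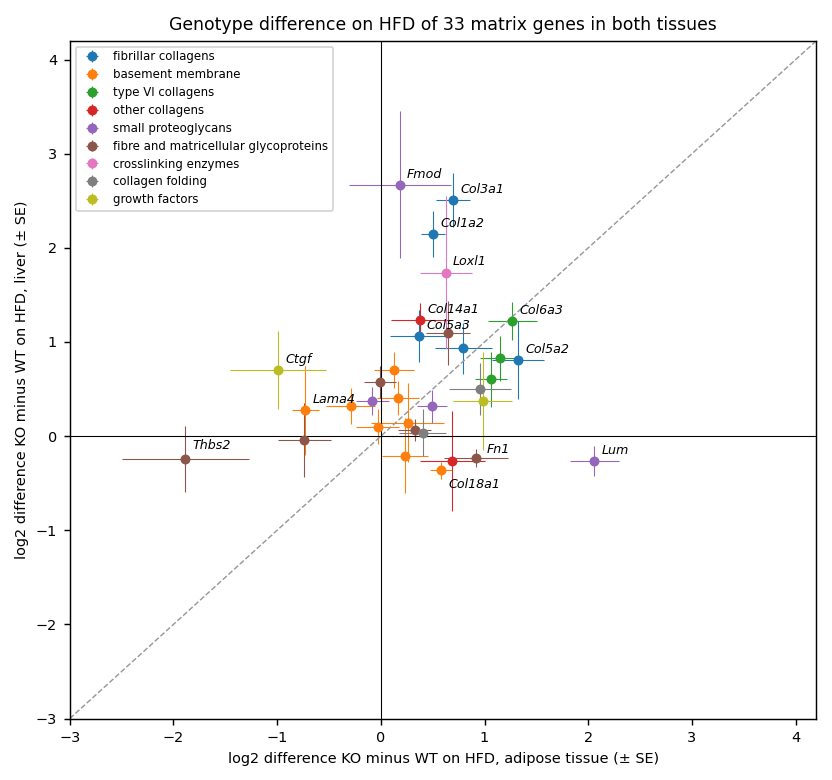
Log2 difference between KO and WT mice on HFD in adipose tissue (horizontal) and liver (vertical) for the 33 members tested in both, each from its own tissue's fit. Among called members Col3a1 and Col1a2 stand highest in liver, the higher point of Fmod resting on WT arrays that averaged below the filter, and Lum stands farthest right and below 0 in liver, and Col6a3 is similar in both. Some genes, Col18a1 among them, are read by a different probe set in each tissue.

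Set against liver, WT adipose tissue on HFD was far richer in matrix transcripts. Of 31 members 29 were higher in adipose tissue and 2 lower, against 39.2% and 26.1% of all genes, with a median of 4.15 beside 0.19. Sparc differed by 4.88 ± 0.16 (adjusted p = 9.54e-16), Col1a2 by 5.06 ± 0.20 (1.48e-14) and Col4a1 by 4.67 ± 0.20 (2.44e-14). Loxl1 and Fmod, which were below the filter in WT liver, were at least 37.2-fold and 20.9-fold higher in adipose tissue. Col18a1 (-3.50 ± 0.10, 8.95e-17) and Fn1 (-1.97 ± 0.24, 3.01e-07) were the 2 that were higher in liver. Tgfbi had the smallest called difference (0.26 ± 0.10, 0.0247), lost without the fat 547, liver 547 or liver 560 array (adjusted p = 0.0661 to 0.106).

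Members that are neighbours on a chromosome did not always move together. Among protein-coding genes Col3a1 lies next to Col5a2 on chromosome 1 and Dcn next to Lum on chromosome 10. Col4a1 lies next to Col4a2 on chromosome 8, on opposite strands, and their 250-base windows before the starts do not overlap. Col4a1 and Col4a2 differed between genotypes in adipose tissue by 0.13 and 0.17 on HFD and by 0.96 and 0.95 on ND. Col3a1 and Col5a2 both rose in KO adipose tissue on HFD, by 0.69 and 1.32, whereas in liver Col3a1 was called and Col5a2 was not (0.81, adjusted p = 0.261). Lum and Dcn differed most within a pair, at 2.06 and -0.08 in adipose tissue on HFD.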

How the data were processed

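From 12 mice, epididymal fat and liver were hybridised to 24 Affymetrix arrays, with total RNA and a biotin label per the labels' protocols. The authors deposited linear intensity values made with MAS5, per the submitters' processing notes (version not given in the sources used here). Array medians were 13.48 to 25.77 and trimmed means (2% cut at each end) 100.03 to 100.051, and no further scaling was applied. Precision is limited by the number of arrays.

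Of 45101 probe sets 64 were controls. The platform annotation gave 34945 probe sets 1 gene symbol, 932 several and 9160 none. The brightest probe set by mean log2 signal stood for each gene. Values under the 10th percentile (1.08 in adipose tissue, 1.10 in liver, 1.09 in the joint fit) were raised to it before log2. Genes were tested when their mean log2 signal was no lower than the median probe set, which is 19.3 intensity units in fat (11613 genes tested) and 13.0 in liver (11125 genes tested). Both filters were passed by 10057 genes. Where the dimmer group lay under that level, a called change is given as at least the brighter mean over the level.

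Group means were fitted with limma 3.58.1 in R 4.3.3, with a variance trend, per tissue and jointly, after a check on simulated data. The replicate number in the labels is the mouse, so its 2 arrays are paired. The deviations of a mouse's arrays had correlations of 0.0351 to 0.129 across tissues, 4 of 12 exceeding 0.1, and the joint fit was repeated with mouse as a block. Alternatives tried were averaged probe sets, no floor, no filter, quantile normalization, only the arrays compared, 1 array left out, and mice with signal of other tissues left out.

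The members, their subgroups, the other lists and these tests were chosen with earlier results of these data known. Values per array are given for up to 3 members of smallest p per subgroup in KO versus WT on HFD in adipose tissue and up to 2 in its interaction, those called on ND, up to 6 per liver comparison with a call, and 4 in the tissue difference. Up to 3 genes of smallest p are named per other list. Further per-array values, such as those of Col3a1 in adipose tissue, were chosen after they were seen. Promoter sequences and chromosome positions are from RefSeq, build GRCm38.p6.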

Additional observations from a re-analysis of the deposited data

Results flagged for a closer look

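In adipose tissue the KO minus WT difference itself differed between HFD and ND for 5 of 39 members, by the interaction test of limma with Benjamini-Hochberg adjustment. It was lower on HFD for Lama4 (-1.80, adjusted p = 0.00245), Eln (-1.60, 0.0199), Nid1 (-1.14, 0.0482) and Sparc (-1.05, 0.0154) and higher for Lum (1.50, 0.0193). Over all genes 7.2% were called lower and 3.76% higher in this adipose test, so the members were called at shares near those of all genes. In liver the same test called Col1a2 (2.27, 0.012) and Col6a3 (1.61, 0.0224) higher, against 0.62% of all genes higher and 0.369% lower. Single arrays or the choice of probe set ended several of these calls, as given above.

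Between the tissues, the joint limma fit called the KO minus WT difference on HFD higher in adipose tissue for 4 members. These were Lum (by 2.32, adjusted p = 6.3e-05), Fn1 (1.15, 0.0282), Col18a1 (0.44, 0.0392) and Tgfbi (0.45, 0.0399). It was lower in adipose tissue than in liver for Col1a2 (-1.64, 0.00113) and Col3a1 (-1.82, 0.00235). Over all genes 5.34% were called higher and 7.43% lower. For Col18a1 the probe set of this test differed by 0.08 in adipose tissue and -0.36 in liver. Groups of 3 arrays are too small for a search for single outlying arrays.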

How the results depend on the processing

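No alternative reversed the direction of a called member. In adipose tissue the 16 members called between KO and WT on HFD became 9 to 21 when 1 array was left out. The 2 called on ND became 5 with quantile normalization, 1 without the filter, none with averaged probe sets, none without mice 686 and 690, and 0 to 8 without 1 array. Without those 2 mice a single WT array on ND is left (mouse 687), and its spread is assumed from the other groups, here and in the interaction. The 5 interaction calls became 1 with averaged probe sets, 8 without mice 427 and 547, 2 without mice 686 and 690, and 3 to 6 without 1 array. The diet calls stayed at 31 to 32 in WT and 31 to 35 in KO mice without 1 array. In liver the 7 called on HFD became 3 with averaged probe sets, 4 with only the arrays compared and 4 to 9 without 1 array, and on ND there were 0 to 2. The 5 diet calls in WT mice became 3 without the filter, 3 with averaged probe sets, 2 with only the arrays compared and 1 to 5 without 1 array. The 16 in KO mice became 10 with averaged probe sets and 8 to 14 without 1 array, and the 2 interaction calls 1 with averaged probe sets and 1 to 3 without 1 array. The 6 tissue differences became 2 with averaged probe sets, 3 with only the arrays compared and 3 to 7 without 1 array, and the 31 differences between WT tissues became 30 to 31. With the mouse as a replicate block (consensus correlation 0.0643) the paired joint fit called 6 tissue differences and 31 differences between WT tissues, and it ended no call. Quantile normalization moved the median of all genes from -0.03 to 0.10 for the diet difference in WT adipose tissue and from 0.19 to 0.02 for WT adipose tissue against liver. Apart from fewer genes or arrays where the alternative itself brings them, the cause of these changes was not tested. Dim signal limits liver, where 6 members were below the filter.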
